A study of Mus musculus with 8 samples.

Results

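The expression of 39 imprinted genes, among them Nnat and Dlk1, was examined in Neuro2a cells, an established mouse neuroblastoma line of the A/J strain. The genes were taken from a list of known mouse imprinted genes, and each was represented by its brightest Affymetrix transcript cluster that carries that gene symbol and no other. Such a cluster measured 32 of the 39 listed genes, out of 19938 named genes on the array. Mirg, Snrpn and Gnas were found only in clusters that also carry another symbol, and no cluster carried the symbol of H19, Zrsr1, Kcnq1ot1 or Peg13. These 7 genes were not analysed here. Total RNA of 4 anchorage dependent (AD) cultures and 4 anchorage independent (AI) cultures was hybridized, 8 arrays in all. AD cells were attached and had been cultured in DMEM with fetal bovine serum. AI cells formed floating tumorspheres in NeuroCult NSC medium, which is serum-free and was supplemented with EGF, bFGF and heparin. Attachment and medium therefore changed together between the groups, and their parts in any difference cannot be told apart. Both groups come from a single line. The labels call the replicates biological and the methods describe replicate hybridizations, so p-values measure the spread between these arrays.

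An imprinted gene is transcribed mainly from the copy inherited from the father or from the mother. The choice is set by DNA methylation laid down in the germ line at imprinting control regions, and it is kept through cell division by the maintenance methyltransferase DNMT1 and by zinc finger proteins such as ZFP57 that recruit TRIM28. Imprinted genes lie in clusters and many act in growth, in the placenta and in the nervous system. The arrays read the total transcript of a gene and not its alleles, so that the parental copy named below is background from mouse tissues and not a measurement in these cells.

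All 13 measured sympathetic neuroblast markers were above background, and none of the 5 measured Schwann and glial markers was above it in either phenotype. The neuroblast markers moved with the phenotype. The list mean was 9.73 to 9.91 log2 in AD arrays and 9.26 to 9.34 log2 in AI arrays. Of the 13, 4 (30.8%) were called higher in AD cells, against 2.02% of named genes. At any fold 9 (69.2%) passed the adjusted p, 7 higher and 2 lower, against 21.7% of named genes (11% higher and 10.7% lower). Background was set on each array as the 95th percentile of 1035 olfactory receptor clusters, at 5.47 to 5.73 log2 in AD arrays and 5.58 to 5.71 log2 in AI arrays. A gene was counted above background in a phenotype when at least 1 of its 4 arrays exceeded it, so its other arrays can lie at or below it. Of the other lineages, 4 of 8 mesenchymal markers were above it (list mean 6.01 to 6.12 log2 in AD and 6.06 to 6.09 log2 in AI arrays), as were 3 of 4 endothelial markers (5.53 to 5.68 log2 in AD and 5.57 to 5.68 log2 in AI arrays). Of the leukocyte markers 1 of 5 was (Cd3e), with Ptprc among the others, and the list mean was 5.08 to 5.22 log2 in AD and 5.14 to 5.25 log2 in AI arrays. Among the mesenchymal markers 1 (12.5%) was called lower in AD cells, against 2.4% of named genes. No Schwann and glial, endothelial or leukocyte marker was called. Cell cycle genes moved with the phenotype, and 10 of 19 measured (52.6%) were called higher in AD cells, against 2.02% of named genes. Their mean log2 signal was 9.96 to 10.30 in AD arrays and 9.45 to 9.74 in AI arrays, with AD replicate 4 the lowest of the AD arrays. The part of proliferation or of neuroblast identity in the results below was not tested. The mean log2 signal of the 32 imprinted genes was 6.99 to 7.06 in AD arrays and 7.04 to 7.08 in AI arrays.

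Imprinted genes changed in both directions. A gene was called when its limma adjusted p was under 0.05, over all 35556 transcript clusters, and its ratio was at least 1.5-fold. Nnat and Dlk1 were called higher in AD cells, and Peg10, Nap1l5, Igf2r and Ppp1r9a were called lower. These 6 of 32 genes make up 18.8%, compared to 4.41% of all named genes (880 of 19938), where 2.02% were called higher and 2.4% lower, and to 3.93% of all clusters. The genes were listed with earlier results of these data known, so this share describes the list and is no test of imprinted genes in general. Of 43 other measured genes with reported imprinting, 2 were called (4.65%). Of the called named genes 54.3% were lower in AD cells, and 37.8% were when the arrays were centred on their medians, while the imprinted genes called then were 2 higher and 3 lower. At any fold, the adjusted p passed for 14 imprinted genes, 5 higher and 9 lower in AD cells, against 21.7% of named genes (11% higher and 10.7% lower). The AD and AI arrays did not overlap for 16 of the 32, against 26.9% of named genes. The median log2 ratio of AD over AI was -0.05 over the imprinted genes and 0.01 over all named genes, and with median centring, which shifts all genes alike, it was 0.02 over the imprinted genes and 0.09 over all named genes. The count of 6 was the same when any array was left out, and the count at any fold was then 12 or 13. In each of the 6 the AD and AI arrays did not overlap, and the exact two-sided permutation p was 0.0286, the smallest that 4 arrays against 4 allow.

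**Figure D1:**
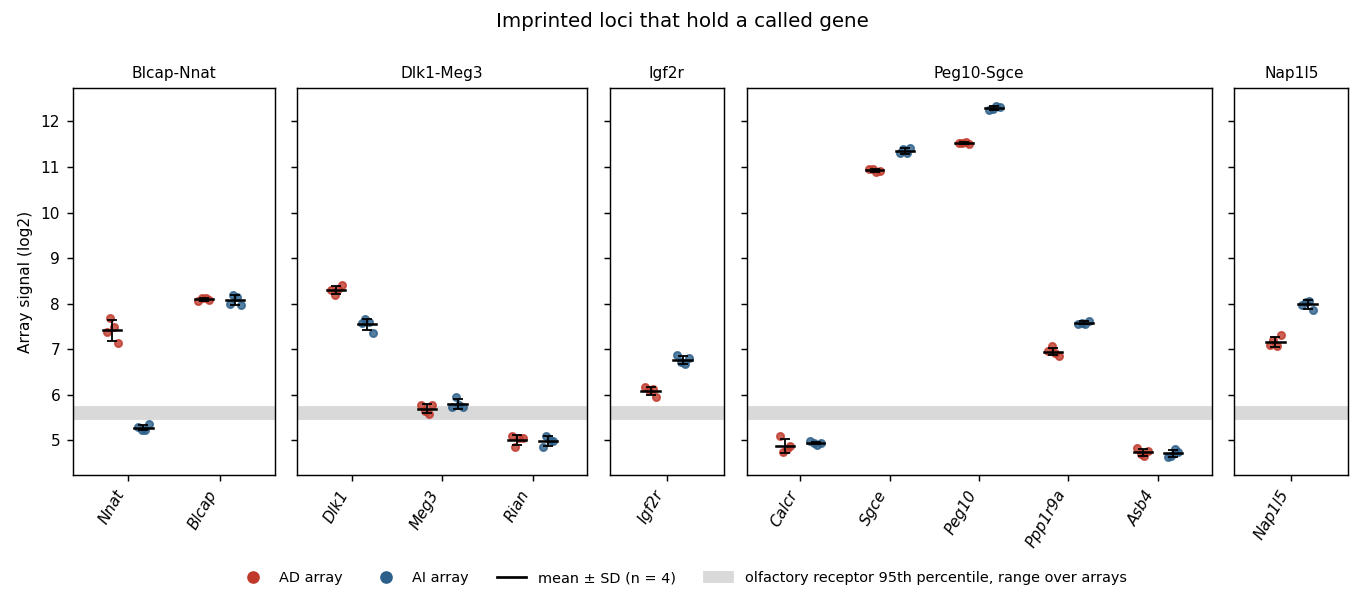
Log2 signal of each of the 4 AD arrays (left of each pair) and 4 AI arrays (right) for the 6 called imprinted genes and genes of their loci, with the mean and SD of each group (lines and bars, n = 4) and the range of the background over arrays as a grey band. Nnat and Dlk1 lie higher in AD cells, and Peg10, Nap1l5, Igf2r and Ppp1r9a lie lower, with no overlap between the groups.

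The promoters of called genes from 3 loci are shown because they come from both parental classes. Nnat and Nap1l5 are small paternally expressed genes that sit inside a host gene, and the Igf2r promoter is active on the maternal copy. The sequences are those of RefSeq on GRCm38.p6, from 250 bases before to 50 bases after the start, 5′ to 3′ on the strand of the gene. Nnat is on the plus strand at chr2:157559828-157560127, Nap1l5 on the minus strand at chr6:58907077-58907376 and Igf2r on the minus strand at chr17:12769657-12769956. Capitals mark TGCCGC or its reverse complement GCGGCA, the core of the motif bound by ZFP57 when it is methylated.
Nnat: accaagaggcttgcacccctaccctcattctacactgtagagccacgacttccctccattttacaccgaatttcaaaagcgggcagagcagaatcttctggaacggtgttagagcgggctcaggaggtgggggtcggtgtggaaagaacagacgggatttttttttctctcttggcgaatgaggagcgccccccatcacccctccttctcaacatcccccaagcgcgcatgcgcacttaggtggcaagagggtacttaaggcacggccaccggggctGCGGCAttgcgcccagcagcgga
Nap1l5: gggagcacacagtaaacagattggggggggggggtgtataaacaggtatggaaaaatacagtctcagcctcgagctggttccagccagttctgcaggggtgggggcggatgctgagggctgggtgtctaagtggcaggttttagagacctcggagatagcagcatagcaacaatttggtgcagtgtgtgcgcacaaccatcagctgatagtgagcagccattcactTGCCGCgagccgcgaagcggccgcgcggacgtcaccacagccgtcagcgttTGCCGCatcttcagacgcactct
Igf2r: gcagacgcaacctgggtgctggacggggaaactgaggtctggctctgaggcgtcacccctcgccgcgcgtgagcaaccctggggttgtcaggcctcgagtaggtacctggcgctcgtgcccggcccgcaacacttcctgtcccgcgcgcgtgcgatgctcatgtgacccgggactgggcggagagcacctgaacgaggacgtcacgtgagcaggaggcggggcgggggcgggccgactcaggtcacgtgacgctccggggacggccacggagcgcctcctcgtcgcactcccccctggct
The core was found once in the Nnat window, 2 times in the Nap1l5 window and not in the Igf2r window. The windows held 17 CpG dinucleotides for Nnat, 17 for Nap1l5 and 34 for Igf2r, compared to a median of 7 over the 32851 windows of the table. Over the 49 windows of the listed imprinted genes the median was 14 CpG, and 11 windows (22.4%) held the core on either strand, against 3813 (11.6%) of all windows. Counted by gene, with any window of a gene, 2 of the 5 called genes with a window held it (Nnat and Nap1l5). The share was 9 of 28 (32.1%) for measured imprinted genes with a window and 3527 of 27025 (13.1%) for all genes of the table. The windows of Dlk1 and Ppp1r9a, which are not shown, did not hold it. The windows follow the transcript start and were not chosen as imprinting control regions. A core that is missing from them says nothing about control regions elsewhere. The core itself holds a CpG, and the shares were not matched for CpG count. A match is a description of these letters and does not show binding.

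Nnat, which encodes neuronatin, a small membrane protein of developing neurons, had the largest log2 ratio of the 32 genes. It is transcribed from the paternal copy and lies at chr2:157560078-157562525, wholly within the annotated span of Blcap, an apoptosis-related gene. The log2 signal of Nnat was 7.38, 7.68, 7.48 and 7.13 in AD arrays and 5.30, 5.23, 5.24 and 5.35 in AI arrays. All 4 AI arrays were at or below background, so that the difference is a lower bound. The means were 7.42 ± 0.23 in AD cells and 5.28 ± 0.06 in AI cells (SD, n = 4 each), which puts Nnat at least 3.43-fold higher in AD cells when the AI level is set at the background of its arrays (limma adjusted p = 4.62e-06). Its host did not pass the test. Blcap read 8.05, 8.12, 8.12 and 8.08 log2 in AD arrays and 7.99, 8.19, 8.14 and 7.97 in AI arrays, with the arrays overlapping (log2 ratio 0.02, SE 0.06, limma adjusted p = 0.875).

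Dlk1, a transmembrane ligand related to the Notch ligands and expressed in immature neuroendocrine cells, was the other gene called higher in AD cells. It lies at chr12:109452485-109463336 and is transcribed from the paternal copy. Dlk1 read 8.29, 8.20, 8.32 and 8.40 log2 in AD arrays and 7.57, 7.65, 7.59 and 7.36 in AI arrays, a 1.69-fold difference (log2 ratio 0.76, SE 0.08, limma adjusted p = 0.000216). The lowest AD array was above the highest AI array. The maternally expressed noncoding RNAs of the same domain did not pass the test. Meg3, a long noncoding RNA, had a log2 signal of 5.77, 5.64, 5.58 and 5.78 in AD arrays and 5.73, 5.95, 5.77 and 5.73 in AI arrays, close to background and overlapping (log2 ratio -0.10, limma adjusted p = 0.396). Rian, the host of small nucleolar RNAs, was not above background in either phenotype (log2 ratio 0.03). Between Dlk1 and Mirg the array also measured 40 microRNA genes, of which 14 were above background. Their log2 ratios were between -0.26 and 0.14 with a median of -0.05. None of the 40 passed the adjusted p in limma, where 2 had an unadjusted p under 0.05, and 1 passed the adjusted p in the analysis of variance of the methods, below 1.5-fold. Rtl1, a retrotransposon-derived paternally expressed gene that overlaps Meg3, had a log2 ratio of 0.08 (limma adjusted p = 0.507). The array does not tell a mature microRNA from its precursor.

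**Figure D2:**
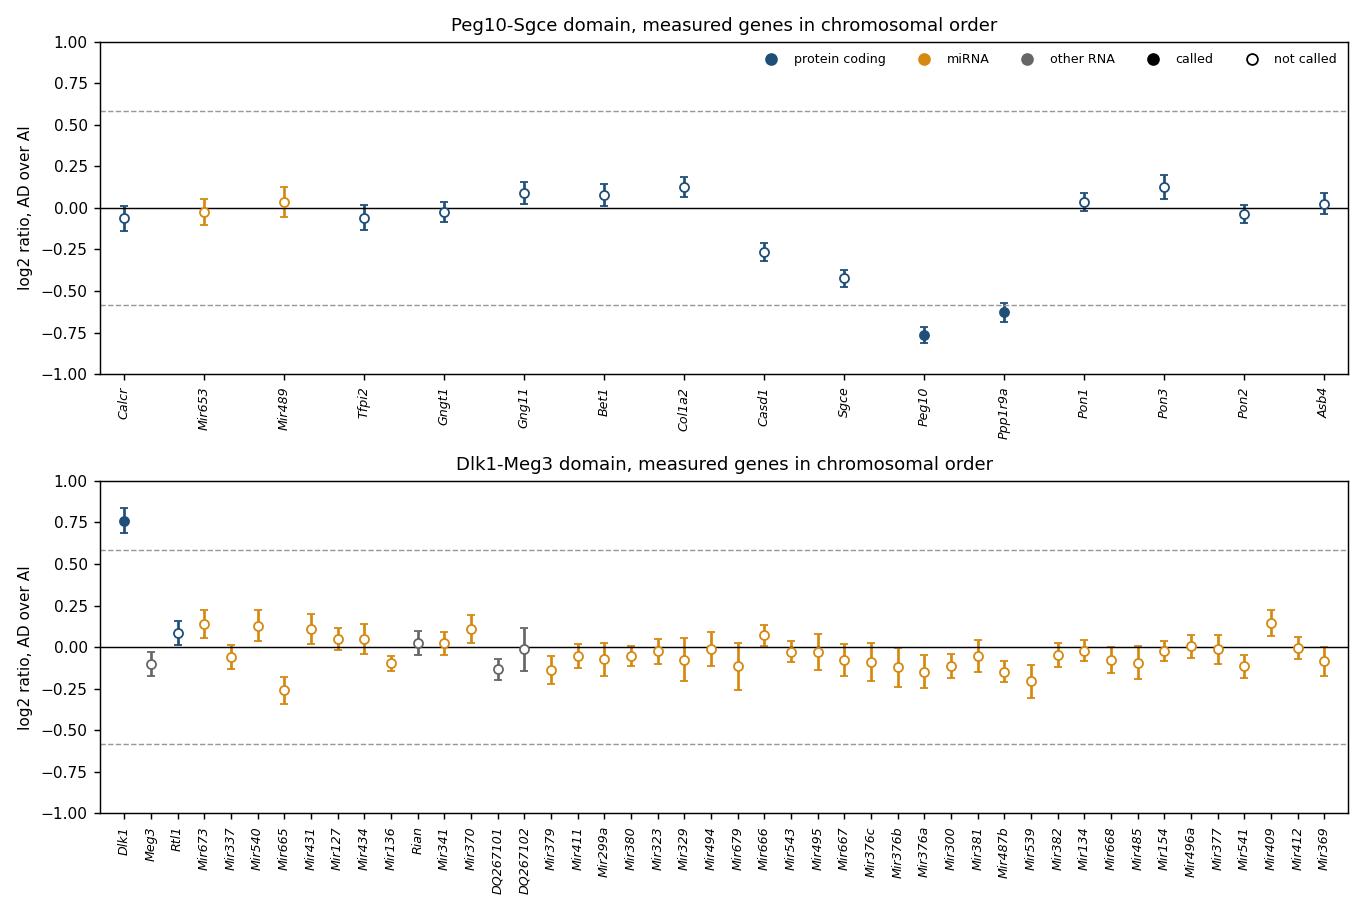
Log2 ratio of AD over AI for the measured genes of the Dlk1-Meg3 and Peg10-Sgce domains in their order along the chromosome, with standard errors from limma as bars, called genes filled and 1.5-fold as dashed lines. Dlk1 stands at 0.76 and the other 45 genes of its domain lie between -0.26 and 0.14, while Casd1, Sgce, Peg10 and Ppp1r9a form a run of negative ratios.

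At the Peg10-Sgce domain of chromosome 6, neighbouring genes were lower in AD cells together. Peg10, a retrotransposon-derived gene needed for the placenta, lies at chr6:4747306-4760517 and had a log2 signal of 11.53, 11.52, 11.56 and 11.51 in AD arrays and 12.25, 12.27, 12.34 and 12.32 in AI arrays. It was 1.70-fold lower in AD cells (log2 ratio -0.76, SE 0.05, limma adjusted p = 1.73e-05), with an SD of 0.02 in AD cells and 0.04 in AI cells. Sgce, which encodes epsilon-sarcoglycan and whose annotated span lies 102 bases from that of Peg10, had a log2 signal of 10.95, 10.96, 10.90 and 10.90 in AD arrays and 11.30, 11.40, 11.30 and 11.41 in AI arrays. It passed the adjusted p but not the 1.5-fold limit (log2 ratio -0.42, SE 0.05, limma adjusted p = 0.000639). Both are paternally expressed genes that share a control region between them. Ppp1r9a encodes neurabin, an actin-binding partner of protein phosphatase 1, and is maternally expressed in placenta and embryo. It lies at chr6:4902872-5165661 and had a log2 signal of 6.96, 7.06, 6.93 and 6.85 in AD arrays and 7.55, 7.58, 7.56 and 7.62 in AI arrays. It was 1.55-fold lower in AD cells (log2 ratio -0.63, SE 0.06, limma adjusted p = 0.000138), close to the 1.5-fold limit, and fell short of it with median centring (log2 ratio -0.55). Genes reported with opposite parental expression in mouse tissues had the same direction here, and their alleles were not read in these cells.

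The run also took in Casd1, a sialic acid acetyltransferase gene outside the list, with a log2 ratio of -0.27 (limma adjusted p = 0.00838, and 0.0694 with median centring). The measured genes Casd1, Sgce, Peg10 and Ppp1r9a are consecutive, and all 4 passed the adjusted p with a negative ratio in the deposited values. None of the other 12 measured genes between Calcr and Asb4 passed it or had an unadjusted p under 0.05 in limma, and none passed in the analysis of variance. Only 2 of these 12, Tfpi2 and Bet1, were above background, so that for most of them a change could have been missed. Calcr, the calcitonin receptor, and Asb4, a substrate adaptor of ubiquitin ligases, are maternally expressed genes at the ends of the domain and were not above background in either phenotype (log2 ratios -0.06 and 0.03).

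Igf2r and the noncoding RNA that overlaps it were both lower in AD cells. Igf2r encodes the mannose 6-phosphate receptor that takes IGF2 to the lysosome, is maternally expressed in most mouse tissues and from both copies in neurons, and lies at chr17:12682406-12769706. Its log2 signal was 6.16, 6.10, 6.13 and 5.96 in AD arrays and 6.86, 6.72, 6.67 and 6.82 in AI arrays, 1.60-fold lower in AD cells (log2 ratio -0.68, SE 0.07, limma adjusted p = 0.000203). Airn, the paternally transcribed RNA that runs against Igf2r and silences it on that copy, had a log2 signal of 6.34, 6.16, 6.55 and 6.18 in AD arrays and 7.24, 7.24, 7.17 and 7.09 in AI arrays. It was 1.84-fold lower in AD cells (log2 ratio -0.88, SE 0.09, limma adjusted p = 0.000242). Their annotated spans share 28396 bases and the strand of the probes is not given in the sources used here, so that signal of Airn and of Igf2r cannot be told apart in the shared part. Igf2 itself, the growth factor ligand, was not above background in either phenotype, with a log2 signal of 5.36, 5.04, 5.16 and 5.42 in AD arrays and 5.24, 5.57, 5.39 and 5.40 in AI arrays (limma adjusted p = 0.349).

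Nap1l5, a brain-enriched member of the nucleosome assembly protein family, is a paternally expressed intronless gene at chr6:58905233-58907126, inside the span of Herc3. The arrays read 7.09, 7.20, 7.07 and 7.30 log2 in AD arrays and 7.97, 8.04, 8.07 and 7.86 in AI arrays, 1.76-fold lower in AD cells (log2 ratio -0.82, SE 0.07, limma adjusted p = 0.000114). Every AI array was above every AD array. Herc3, a ubiquitin ligase gene, had the opposite sign, with a log2 signal of 9.19, 9.26, 9.33 and 9.28 in AD arrays and 9.04, 8.94, 9.00 and 9.15 in AI arrays (log2 ratio 0.23, SE 0.06, limma adjusted p = 0.0301, under 1.5-fold), but it passed in only 3 of the 8 fits that leave out an array. Herc3 is also among the other genes with reported imprinting. It covers all 1894 bases of Nap1l5, and signal from those bases cannot be assigned to either gene. In the other host pair, Nnat was higher in AD cells while its host Blcap overlapped between the groups.

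**Figure D3:**
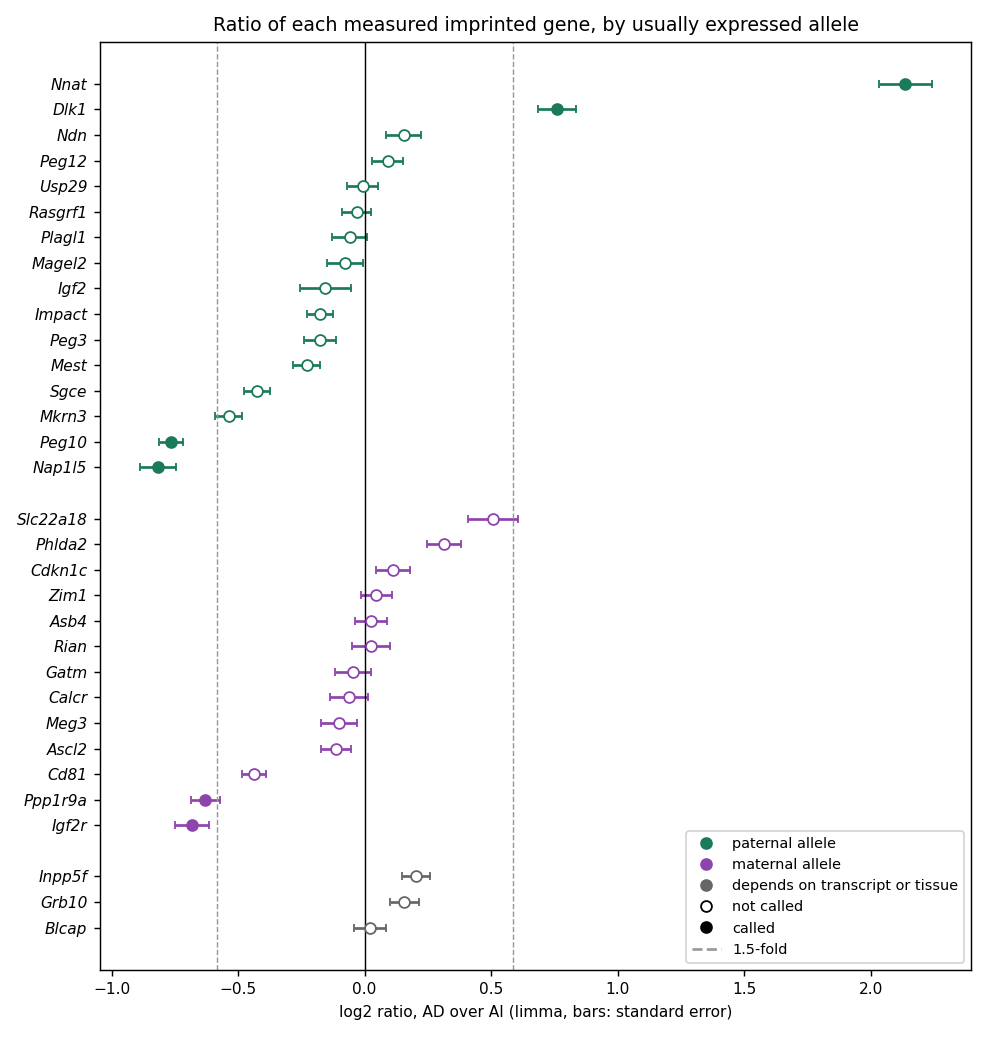
Log2 ratio of AD over AI with its limma standard error for the 32 measured imprinted genes, grouped by the parental copy usually expressed in mouse tissues, with called genes filled and 1.5-fold as dashed lines. Called genes are found among the paternally expressed genes (Nnat, Dlk1, Peg10, Nap1l5) and the maternally expressed genes (Igf2r, Ppp1r9a), and most of the others lie near 0.

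A further 8 imprinted genes passed the adjusted p below 1.5-fold. Mkrn3, a RING finger protein gene of the Prader-Willi domain known for its part in the timing of puberty, came closest to the limit. Its log2 signal was 6.44, 6.46, 6.42 and 6.46 in AD arrays and 7.08, 6.93, 6.96 and 6.95 in AI arrays (log2 ratio -0.54, SE 0.05, limma adjusted p = 0.000203). The other listed genes measured in that domain were near background and did not pass. Necdin (Ndn), which restrains the growth of neurons, had a mean log2 signal of 5.68 ± 0.10 in AD arrays and of 5.52 ± 0.10 in AI arrays (SD, n = 4 each), the AI arrays not above background. Magel2 had a log2 ratio of -0.08 and Peg12 had 0.09. Cd81, a tetraspanin at the edge of the Kcnq1ot1 domain, had a log2 signal of 11.63, 11.67, 11.60 and 11.65 in AD arrays and 12.06, 12.07, 12.11 and 12.04 in AI arrays (log2 ratio -0.44, limma adjusted p = 0.000337). The lncRNA R74862, whose annotation overlaps Cd81 by 937 bases, had a similar log2 ratio of -0.46 (limma adjusted p = 0.00135), and their shared signal cannot be told apart.

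Within the Kcnq1ot1 domain the genes at the far end ran the other way from Cd81. Slc22a18, a membrane transporter, had a log2 signal of 6.88, 6.98, 6.81 and 7.29 in AD arrays and 6.45, 6.55, 6.46 and 6.48 in AI arrays (log2 ratio 0.51, SE 0.10, limma adjusted p = 0.0071). Phlda2, a pleckstrin homology protein that limits placental growth and lies next to it, had a log2 signal of 5.93, 6.13, 5.89 and 6.01 in AD arrays and 5.74, 5.72, 5.61 and 5.63 in AI arrays (log2 ratio 0.31, SE 0.07, limma adjusted p = 0.011). Neither pair of groups overlapped. The cell cycle inhibitor Cdkn1c and the placental transcription factor Ascl2 of the same domain were not above background in either phenotype. Tspan32 and Trpm5, genes outside the list on either side of Cd81, were not above background either. Both passed the adjusted p lower in AD cells below 1.5-fold (log2 ratios -0.40 and -0.31, limma adjusted p = 0.0205 and 0.00377). At this signal the size of their differences is uncertain. Tspan32 did not pass in the analysis of variance of the methods. Tssc4 and Kcnq1 of the domain, also with reported imprinting, did not pass in limma.

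Mest, a hydrolase-like paternally expressed gene at chr6:30733506-30748466, had a log2 signal of 11.86, 11.92, 11.87 and 11.76 in AD arrays and 12.10, 12.05, 12.07 and 12.10 in AI arrays, a small but separate difference (log2 ratio -0.23, SE 0.05, limma adjusted p = 0.0156) that did not pass with median centring (limma adjusted p = 0.142). The microRNA gene Mir335, at chr6:30741299-30741396 on the plus strand, lies inside Mest and was called lower in AD cells. Its log2 signal was 5.74, 5.72, 5.72 and 5.81 in AD arrays and 6.26, 6.22, 6.68 and 6.60 in AI arrays (1.62-fold lower in AD cells, log2 ratio -0.69, SE 0.10, limma adjusted p = 0.00201). Signal of the host transcript and of the microRNA cannot be told apart. The mature arms are shown with the seed, bases 2 to 8, in capitals, since these letters set which transcripts each arm can pair with. They are those of RefSeq on GRCm38.p6, and each seed is held by 1 mature name in that table.
mmu-miR-335-5p: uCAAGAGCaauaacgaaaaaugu
mmu-miR-335-3p: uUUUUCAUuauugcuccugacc
Impact, a regulator of the GCN2 stress kinase (log2 ratio -0.18, limma adjusted p = 0.0474), and Inpp5f, an inositol phosphatase of which a short brain transcript is imprinted (log2 ratio 0.20, limma adjusted p = 0.0307), had still smaller differences. Impact did not pass when any of the 8 arrays was left out (limma adjusted p between 0.0611 and 0.124) or with median centring (limma adjusted p = 0.293), and Inpp5f passed in 2 of the 8 fits that leave out an array (limma adjusted p between 0.0234 and 0.0912).

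Peg3, a zinc finger protein gene of the growth-regulating Peg3 domain, did not pass the test. Peg3 read 10.47, 10.44, 10.48 and 10.53 log2 in AD arrays and 10.62, 10.52, 10.71 and 10.78 in AI arrays, with 1 AI array within the AD range (log2 ratio -0.18, limma adjusted p = 0.0936). Usp29, a ubiquitin protease gene beside it, had a log2 ratio of -0.01. Grb10, an adaptor that dampens insulin and IGF receptor signalling, had a mean log2 signal of 5.68 ± 0.08 in AD arrays and of 5.52 ± 0.06 in AI arrays (SD, n = 4 each), the AI arrays again not above background. The difference is bounded only at 1.03-fold or more and did not pass (limma adjusted p = 0.101). In all, 22 of the 32 measured genes were above background in at least one phenotype. The 10 that were not are Rian, Igf2, Zim1, Cdkn1c, Plagl1, Asb4, Calcr, Ascl2, Gatm and Rasgrf1. Their log2 ratios were between -0.15 and 0.11, and a change in them could have been missed at this signal.

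Called genes were found in both parental classes. Of 16 measured paternally expressed genes, 2 were called higher in AD cells (Nnat and Dlk1) and 2 lower (Peg10 and Nap1l5), with a median log2 ratio of -0.12. Over all named genes 4.41% were called, 2.02% higher and 2.4% lower, with a median of 0.01. Of 13 measured maternally expressed genes, none was called higher and 2 were called lower (Igf2r and Ppp1r9a), with a median of -0.05, and 7 of the 13 were not above background. At any fold, 8 of the 16 paternally expressed genes passed the adjusted p, 2 higher and 6 lower in AD cells. With median centring Mest and Impact, 2 of those lower, did not pass. Of the 13 maternally expressed genes 5 passed, 2 higher (Slc22a18 and Phlda2, below 1.5-fold) and 3 lower. Over all named genes 21.7% passed, 11% higher and 10.7% lower. The classes were not tested against each other, and with median centring Ppp1r9a was no longer called. Igf2r is expressed from both copies in neurons, and Ppp1r9a is maternally expressed in placenta and embryo. Neither called gene of the maternal class need therefore be maternally expressed in these cells, where alleles were not read. The 3 measured genes put in a separate class because their imprint depends on the transcript or tissue (Blcap, Grb10 and Inpp5f) had log2 ratios between 0.02 and 0.20. They were not called, although Inpp5f passed the adjusted p.

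Partners of IGF2 and its receptor were read from a list of 22 genes, of which 21 were measured and 6 were called (28.6%, against 4.41% of named genes), with a median log2 ratio of 0.05. That list was also chosen with earlier results of these data known, so its share is a description only. The called binding proteins that hold IGFs outside the cell were lower in AD cells, apart from the low-affinity relative Igfbp7. Igfbp5 had a log2 signal of 7.77, 7.90, 7.73 and 7.62 in AD arrays and 9.30, 9.23, 9.21 and 9.17 in AI arrays, 2.78-fold lower in AD cells (log2 ratio -1.47, limma adjusted p = 2.59e-06). Igfbp2 was 2.11-fold lower in AD cells (6.01 ± 0.04 in AD and 7.08 ± 0.19 in AI cells, limma adjusted p = 7.77e-05), and Igfbp4 was 2.04-fold lower (10.14 ± 0.12 in AD and 11.16 ± 0.02 in AI cells, limma adjusted p = 1.85e-05). Igfbp6, which prefers IGF2, was 1.51-fold lower (limma adjusted p = 0.0043), at the fold limit, and was not called without AD replicate 2, AD replicate 3, AI replicate 2 or AI replicate 3, or with median centring, which left 5 called. Igfbp7, a secreted relative with low affinity for IGFs, went the other way. Its log2 signal was 11.08, 11.13, 11.16 and 11.19 in AD arrays and 10.04, 10.01, 10.04 and 9.96 in AI arrays, 2.18-fold higher in AD cells (log2 ratio 1.13, limma adjusted p = 2.38e-06). Igf2bp3, an RNA-binding protein that binds Igf2 mRNA, was 1.73-fold higher (6.84 ± 0.15 in AD and 6.06 ± 0.10 in AI cells, limma adjusted p = 0.000354). The signalling receptor Igf1r had a log2 ratio of 0.08 (limma adjusted p = 0.44), and the insulin receptor Insr had -0.33 (limma adjusted p = 0.00178, under 1.5-fold).

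**Figure D4:**
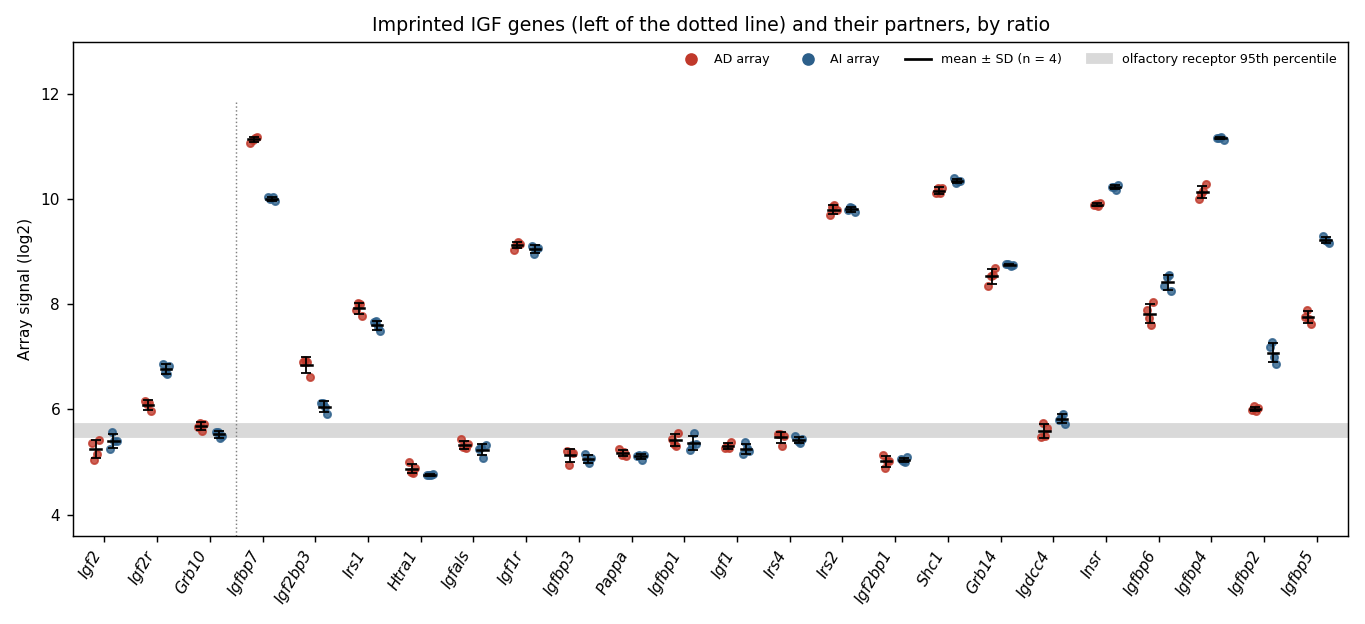
Log2 signal of each AD array (left of each pair) and AI array (right), with group mean and SD, for Igf2, Igf2r, Grb10 and partners of the IGF system, with the background range as a grey band. Igfbp7 and Igf2bp3 lie higher in AD cells, Igf2r, Igfbp2, Igfbp4, Igfbp5 and Igfbp6 lie lower, and Igf2 lies near background in both.

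Genes that set or keep imprints were read from a list of 35, of which 32 were measured, with a median log2 ratio of 0.14. Only Hells was called, a chromatin remodeler needed for DNA methylation (3.12% of the list, against 4.41% of named genes). Its log2 signal was 9.55, 9.59, 9.48 and 8.80 in AD arrays and 8.32, 7.97, 7.99 and 8.45 in AI arrays (2.26-fold higher in AD cells, log2 ratio 1.18, SE 0.18, limma adjusted p = 0.00232). AD replicate 4 was the lowest AD array, as it was for the cell cycle genes. Without AD replicate 4, Uhrf1 and Ctcf were called too, making 3, and without AI replicate 1 or AI replicate 4 Uhrf1 was, making 2. At any fold, 9 of the 32 passed the adjusted p higher in AD cells and 2 lower (34.4%, against 21.7% of named genes, 11% higher and 10.7% lower), and 17 passed without AD replicate 4. The maintenance methyltransferase Dnmt1 had a log2 ratio of 0.44 (limma adjusted p = 0.00262), its partner Uhrf1 had 0.57 (limma adjusted p = 0.0017), the insulator protein Ctcf had 0.51 (limma adjusted p = 0.00502) and the Polycomb methyltransferase Ezh2 had 0.51 (limma adjusted p = 0.00145).

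The 2 that were lower in AD cells are the zinc finger proteins that bind methylated imprinting control regions. Zfp57 had a log2 signal of 9.66, 9.52, 9.65 and 9.66 in AD arrays and 9.98, 9.98, 10.16 and 10.10 in AI arrays (log2 ratio -0.43, SE 0.06, limma adjusted p = 0.00175). Zfp445 had a log2 signal of 8.72, 8.70, 8.72 and 8.46 in AD arrays and 9.07, 9.00, 9.11 and 9.17 in AI arrays (log2 ratio -0.44, SE 0.07, limma adjusted p = 0.00325). Neither reached 1.5-fold, and in both the AD and AI arrays did not overlap. Their corepressor Trim28 had overlapping arrays (log2 ratio 0.07, limma adjusted p = 0.579), and so had the histone methyltransferase Setdb1 (log2 ratio 0.24, limma adjusted p = 0.114).

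**Figure D5:**
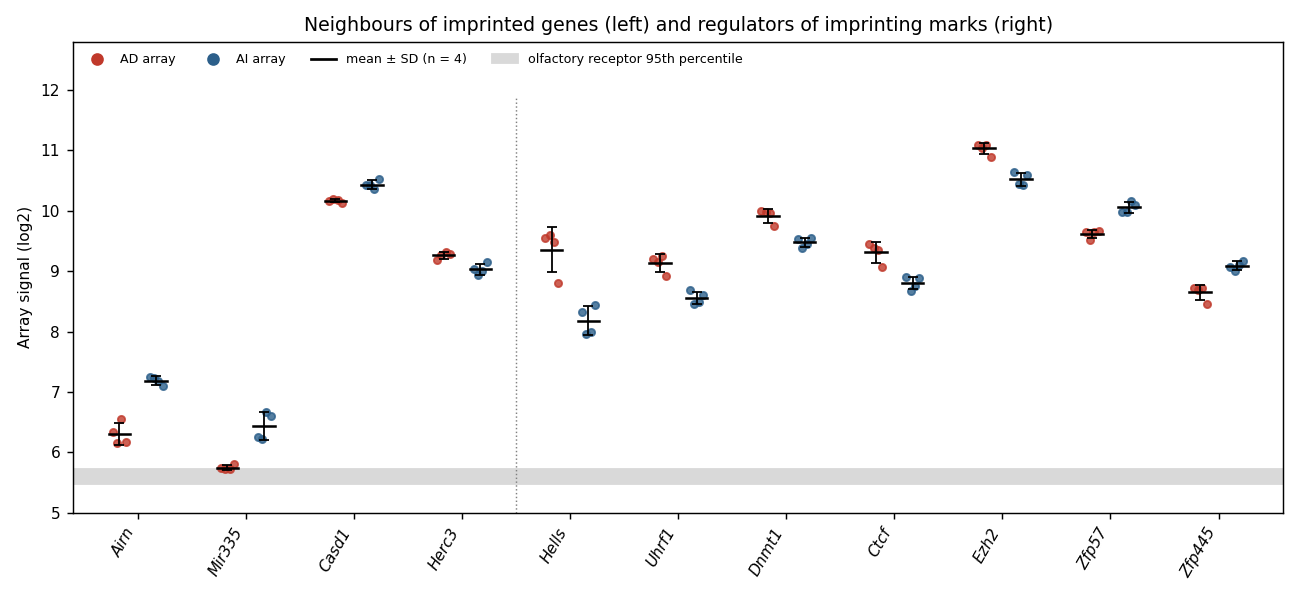
Log2 signal of each AD array (left of each pair) and AI array (right), with group mean and SD, for genes beside the imprinted ones (left of the dotted line) and for genes that set or keep imprints (right), with the background range as a grey band. Hells lies higher in AD cells, Zfp57 and Zfp445 lie lower, and Airn and Mir335 lie lower in AD cells.

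The chromosomal surroundings were read from the 3 nearest measured genes outside the 39 on each side of every measured imprinted gene. Listed genes in between were passed over, so that genes of a domain share neighbours. Of these 114 genes 6 were called (5.26%, against 4.41% of named genes), with a median log2 ratio of 0.04. Airn and Mir335 were described above. Adamts7, a matrix protease gene near Rasgrf1, was 1.53-fold lower in AD cells (log2 ratio -0.61, limma adjusted p = 0.000295) and was not called without AD replicate 2, with quantile normalization or with median centring. The 3 that were higher in AD cells were Osbpl1a, an oxysterol-binding protein gene near Impact (log2 ratio 0.65, limma adjusted p = 0.000806), Fignl1, a DNA repair gene near Grb10 (log2 ratio 0.64, limma adjusted p = 0.00167), and Th, the tyrosine hydroxylase of catecholamine synthesis (log2 ratio 0.60, limma adjusted p = 0.000471). Th had a log2 signal of 7.93, 8.06, 8.12 and 8.07 in AD arrays and 7.53, 7.47, 7.50 and 7.29 in AI arrays, close to the fold limit, and was not called without AD replicate 3, without AI replicate 4 or with array weights. A wider list of 48 genes with reported imprinting outside the 39 gave 43 measured, of which Th and Airn were called (4.65%), so 1 remained without either of those arrays. At any fold, 4 of the 43 passed the adjusted p higher in AD cells and 4 lower (18.6%, against 21.7% of named genes), and 5 passed in all without AD replicate 3 or without AI replicate 3. Ampd3, an AMP deaminase gene, had a log2 ratio of 0.49 (limma adjusted p = 0.000255), and Dhcr7, the last enzyme of cholesterol synthesis, had -0.38 (limma adjusted p = 0.00132).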

How the data were processed

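The authors hybridized total RNA of 4 AD and 4 AI cultures to Affymetrix mouse gene arrays. The deposited values are log2 signals for 35556 transcript clusters, and the submitters' processing notes name Partek 6.5 and GCRMA; the methods name further normalizations, which were not used here. Clusters were named by the platform annotation and located through RefSeq (GRCm38.p6), where all 32 measured genes matched by gene number. The listed genes, the other gene lists and the tests were chosen with earlier results of these data known. A model of phenotype alone was fitted to every cluster by limma 3.58.1 (lmFit and eBayes, R 4.3.3). P-values were adjusted by the Benjamini-Hochberg method over the whole array, and the thresholds were those of the study's design, an adjusted p of 0.05 and 1.5-fold. The fit was tried on simulated normal data with 50 changed clusters at each fold. At 1.75-fold, the smallest change tried, 88% were called, and 2 unchanged clusters were called. Dlk1, Peg10, Igf2r and Ppp1r9a had smaller changes, for which recovery was not tried. Ratios are AD over AI. Tables, exact permutation tests and plots used Python 3.11.15, pandas 2.3.3, numpy 2.4.6, scipy 1.17.1 and matplotlib 3.10.9. Every listed gene was accounted for. Called genes and genes of their loci were given in full, with up to 4 called genes per direction from each other list, and further genes were named for their role with their values seen. Arrays give no counts, so their number and the signal over background limit the precision. The alternatives were quantile normalization, median centring, leaving out clusters below the 40th percentile, the methods' analysis of variance, a trend with robust variance, array weights, the mean of a gene's clusters, replicate number as a block, other thresholds and leaving out each array.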

Additional observations from a re-analysis of the deposited data

Results flagged for a closer look

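Across the 64 groups of 4 arrays (32 imprinted genes in 2 phenotypes), 2 held an array set apart from the other 3 by more than Dixon's 95% critical value, a gap that chance gives in about 1 in 20 groups. Ndn, the gene of the neuronal growth regulator necdin, was at 5.38 log2 in AI replicate 4, against 5.57 in each of the other AI arrays, all of them not above background. Mkrn3 was at 7.08 log2 in AI replicate 1, against 6.93 to 6.96 in the other AI arrays, while the AD arrays were at 6.42 to 6.46.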

How the results depend on the processing

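Over 19 alternatives the called genes kept their direction. Nnat passed in all 19 (log2 ratio 2.05 to 2.23). At a fold of at least 2, Dlk1, Igf2r, Peg10, Nap1l5 and Ppp1r9a fell short and left 1 imprinted gene called (1 higher, 0 lower in AD cells; 1 paternally and 0 maternally expressed), 0 of the other imprinted genes and 0 of the neighbours, by limma in each case. With the adjusted p at any fold, 14 imprinted genes passed (5 higher, 9 lower; 8 paternally and 5 maternally expressed), with 8 other imprinted genes, 11 regulators and 31 neighbours. Median centring raised ratios in common, with the median over all named genes at 0.01 as deposited and 0.09 when centred. It lost Ppp1r9a, left 1 maternally expressed gene, called 3 regulators (Hells, Uhrf1 and Ezh2), moved the median log2 ratio of the imprinted genes to 0.024 and so carried across 0 the small ratios of Usp29 (0.069), Plagl1 (0.017), Calcr (0.015), Gatm (0.031) and Rasgrf1 (0.045), none of them past the threshold. Quantile normalization turned Usp29 (0.084). With array weights, 1 other imprinted gene and 2 regulators were called. Leaving out each array gave 6 imprinted genes called each time (2 higher, 4 lower), 1 to 3 regulators, 1 to 2 other imprinted genes, 5 to 6 IGF partners and 5 to 7 neighbours, and signs turned for Rian (-0.019 to 0.078), Asb4 (-0.0051 to 0.057), Usp29 (-0.051 to 0.016), Gatm (-0.084 to 0.0061) and Blcap (-0.013 to 0.059). The methods' analysis of variance called the same 6. The causes were not tested. The replicate block left 6 imprinted genes called and 11 past the adjusted p at any fold. Mest, Impact and Inpp5f no longer passed there (limma adjusted p = 0.0625, 0.120 and 0.0948). The sample titles do not say whether same-numbered AD and AI arrays were handled together. Their deviations from the group means correlated at -0.11, 0.08, 0.0048 and -0.17, which cannot decide it. The filter on dim clusters left 22 of the 32 genes, so it gave no value for the 10 not above background, where signal over background limits what can be measured.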
